A study of Mus musculus with 2 samples.

Results

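The miR-322/miR-503 cluster is a group of miRNA genes that lie close together on the mouse X chromosome and are known for holding cell growth and division in check. The genes described here are Mir322, Mir503, Mir351, Mir542 and Mir450b, 5 of the 1973 miRNA genes in the count tables, taken by matching their Ensembl identifiers to the GENCODE annotation of GRCm38. They were selected on their sense-strand counts in these same libraries, so their levels and their ratio between the libraries are given as a description and carry no test. Small RNA was sequenced from the neural tube, the embryonic precursor of brain and spinal cord, of B6NCrl mouse embryos at embryonic day 14.5. There was 1 group of 2 libraries and no treatment, mutation or second tissue: replicate 1 came from pup 1 of dam 1 and replicate 2 from pup 1 of dam 2. The labels call each sample a single neural tube and also give its sex as pooled male and female, and the data do not settle which of these holds.

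A miRNA gene is transcribed as a longer RNA that folds into a hairpin, and each hairpin yields a mature miRNA of its 5′ arm and one of its 3′ arm. The mature miRNA finds its target mRNAs mainly through its seed, bases 2 to 8. miR-322 is the rodent counterpart of human miR-424, and with miR-503 it is known from mouse muscle precursor cells for lowering Cdc25a, a phosphatase that drives the cell cycle, as these cells stop dividing and differentiate. The seed of miR-322 is that of the miR-15/16 family, which represses cyclins and other cell cycle genes, and the seed of miR-351 is that of the miR-125 family, known from neural and blood development.

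The mature sequences of the members from RefSeq (build GRCm38.p6) are shown because the seed tells which of them could address the same targets, and capitals mark bases 2 to 8.
mmu-miR-322-5p: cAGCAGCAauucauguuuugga
mmu-miR-322-3p: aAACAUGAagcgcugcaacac
mmu-miR-503-5p: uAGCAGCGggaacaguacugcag
mmu-miR-503-3p: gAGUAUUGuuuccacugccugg
mmu-miR-351-5p: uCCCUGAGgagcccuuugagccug
mmu-miR-351-3p: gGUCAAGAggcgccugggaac
mmu-miR-542-5p: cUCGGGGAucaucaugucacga
mmu-miR-542-3p: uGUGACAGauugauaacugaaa
mmu-miR-450b-5p: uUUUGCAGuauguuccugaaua
mmu-miR-450b-3p: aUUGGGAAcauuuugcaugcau

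The seeds of miR-322-5p and miR-503-5p were the same at 6 of 7 bases. The difference was A8G, with miR-322-5p given first and positions counted from 1 at the 5′ end of the mature miRNA. Over their first 22 bases the 2 sequences were the same at 11 positions. Of the 10 mature arms of the members, 6 had a seed that no other of the 1738 mature sequences in the RefSeq table carried, counting the other genes of the cluster too. The exceptions were miR-322-5p, miR-351-5p, miR-542-5p and miR-450b-3p. The 7 bases AGCAGCA of miR-322-5p recurred in the miR-15/16 family, and the 7 bases CCCUGAG of miR-351-5p recurred in miR-125a and miR-125b. Examples from both families are shown for comparison with the members above.
mmu-miR-15a-5p: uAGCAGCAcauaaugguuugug
mmu-miR-16-5p: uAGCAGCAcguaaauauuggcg
mmu-miR-195a-5p: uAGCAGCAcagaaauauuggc
mmu-miR-125a-5p: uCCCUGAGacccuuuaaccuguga
mmu-miR-125b-5p: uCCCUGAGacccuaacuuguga

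Outside the seed these sequences were the same only in part. Counting the 7 bases of the seed, miR-322-5p and miR-15a-5p had the same base at 15 of 22 positions. For miR-351-5p and miR-125a-5p it was 10 of 24, also with the seed, compared base by base from the 5′ end without gaps.

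The deposited counts are per hairpin and join both arms, so a level below belongs to the gene and not to one of its arms. The hairpins of Mir322 and Mir503 are shown to place the arms, with both mature arms in capitals. They lie on the minus strand at chrX:53054255-53054349 and chrX:53053984-53054054 (GRCm38).
Mir322: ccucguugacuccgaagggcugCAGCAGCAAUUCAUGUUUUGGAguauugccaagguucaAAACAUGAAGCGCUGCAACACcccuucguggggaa
Mir503: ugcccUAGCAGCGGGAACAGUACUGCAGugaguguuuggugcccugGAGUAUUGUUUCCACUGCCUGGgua

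All members lie on the minus strand of chromosome X within 6353 bp. Mir322, the first in the direction of transcription, is followed after 200 bp by Mir503 and after another 630 bp by Mir351, at chrX:53053255-53053353. A gap of 3767 bp separates Mir351 from Mir542, at chrX:53049403-53049487, and Mir450b closes the group at chrX:53047997-53048078. Between Mir542 and Mir450b lie Mir450-2 and Mir450-1, a pair of hairpins of the same locus that are not among the 5 members. In the RefSeq annotation the span of the noncoding gene C430049B03Rik, from 53053112 to 53057190, covers Mir322, Mir503 and Mir351, whereas Mir542, Mir450b and the Mir450 pair lie in no other RefSeq gene. In GENCODE M21 the same noncoding gene starts upstream of Mir322 and ends before it, from 53055046 to 53057190, so that in this annotation no member lies within another gene of its strand.

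The libraries held 5941830 reads in replicate 1 and 7074029 reads in replicate 2, and 3172235 and 3671915 of these matched the sense strand of a miRNA gene. Levels are given as counts per 1000000 of these sense counts (CPM), as mean ± SD over both libraries where a mean is given. Where a gene had no read, its level could still be as high as 0.946 CPM in replicate 1 or 0.817 CPM in replicate 2. No molecular identifiers are stated, so these limits and the exact 95% binomial intervals used below cover counting error only. Of the miRNA genes fixed as markers of neural tube tissue, the neuronal gene Mir137 had 9594 CPM in replicate 1 and 9321 CPM in replicate 2, and Mir10b of the Hoxd cluster was the most abundant gene in the tables at 216129 ± 30061 CPM (SD, n = 2). Mir219a-2 of the oligodendrocyte lineage had 7533 counts in replicate 1 and 7669 in replicate 2, Mir196b of the Hoxa cluster 15689 and 11539, and Mir9-3, from a family of neural progenitors, 1741 and 1784. Mir9-2 had 5 and 4 counts, and the neuronal Mir124a copies had 4 to 23 per library. Reads that fit several positions, 32.4% of all reads in replicate 1 and 33.3% in replicate 2, entered no gene count. Low counts of genes with further copies, such as Mir9-2 and the Mir124a genes, therefore say little of how much mature miRNA was present.

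The members together had 7613 counts in replicate 1 and 18637 in replicate 2, or 2400 and 5076 CPM. Their mean was 3738 ± 1892 CPM (SD, n = 2), which is 0.374% ± 0.189 of the miRNA counts. Mir322 made up most of this. It had 1986 CPM in replicate 1 and 4104 CPM in replicate 2, and it was 55th and 35th in the order of all genes, counted from the most abundant.

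**Figure D1:**
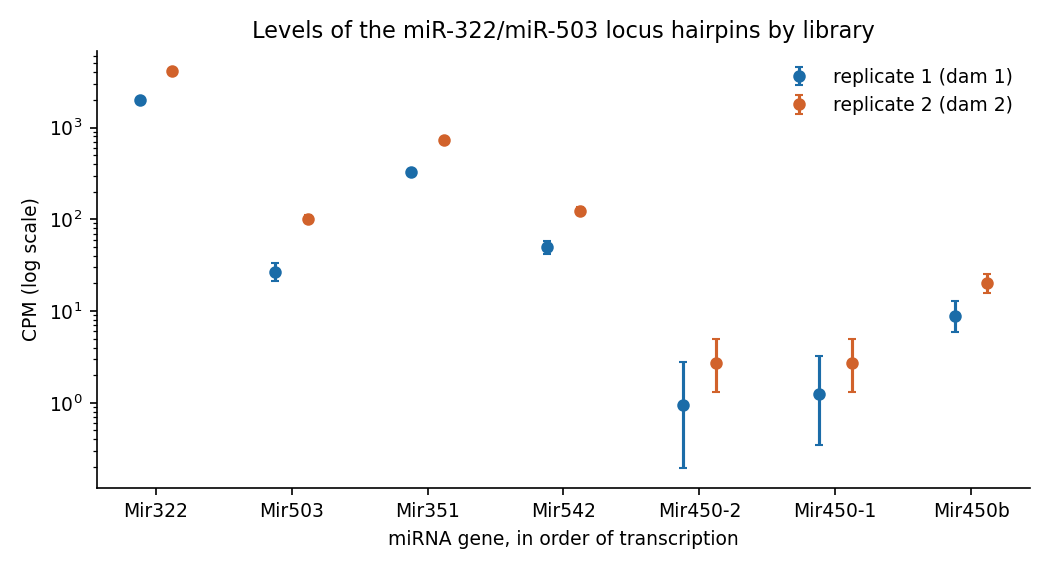
Level of each hairpin of the locus in CPM on a log scale, in replicate 1 (blue) and replicate 2 (orange), in the order of transcription. Points are single libraries and bars are exact 95% binomial intervals for counting error, and for every hairpin the replicate 1 point lies below the replicate 2 point.

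Levels of the members spread over more than 2 orders of magnitude. Mir351, the gene with the miR-125 seed, was next after Mir322, at 328 CPM in replicate 1 and 727 CPM in replicate 2. Mir542 had 49.8 CPM in replicate 1 and 123 CPM in replicate 2. Its 3p product is known in human cells for repressing survivin, a protein of cell division and survival. Mir503, the neighbour of Mir322, had 26.8 CPM in replicate 1 and 101 CPM in replicate 2. Mir450b was lowest, at 8.83 CPM in replicate 1 and 20.2 CPM in replicate 2.

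The order Mir322, Mir351, Mir542, Mir503, Mir450b was the same in both libraries. Mir542 at 86.5 ± 51.8 CPM and Mir503 at 64.1 ± 52.7 CPM (SD, n = 2 each) were neighbours in that order whose values overlapped between libraries. Within replicate 1 their exact intervals lay apart, 42.3 to 58.2 CPM for Mir542 and 21.4 to 33.1 CPM for Mir503, whereas in replicate 2 the intervals met, 112 to 135 CPM and 91.3 to 112 CPM. The other neighbours in the order, Mir322 and Mir351, Mir351 and Mir542, and Mir503 and Mir450b, had ranges over the libraries that did not overlap. Rank followed position along the locus only in part: the first hairpin was the highest and the last the lowest of the 5, but the second, Mir503, was lower than the third and the fourth.

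**Figure D2:**
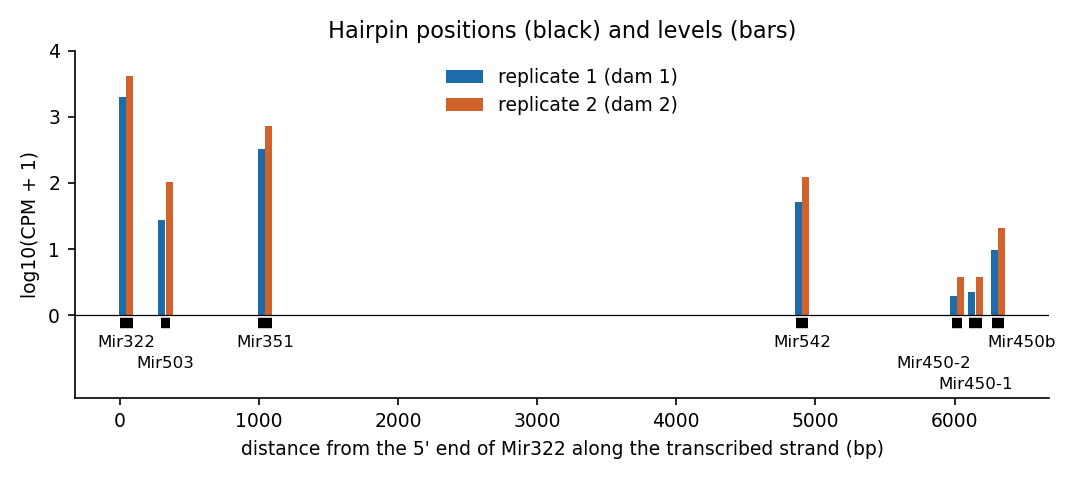
Position of the hairpins (black blocks, to scale) as distance in bp from the 5′ end of Mir322 along the transcribed strand, with their level as log10(CPM + 1) in replicate 1 (blue) and replicate 2 (orange). Mir503, 200 bp from Mir322, stands far below it, while Mir351, a further 630 bp away, stands between them.

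As shares of the cluster's own counts the members were closer between the libraries than as CPM. Mir322 took 82.8% of the cluster in replicate 1 and 80.9% in replicate 2, and Mir351 took 13.7% and 14.3%. Mir542 took 2.08% in replicate 1 and 2.43% in replicate 2, and Mir450b took 0.368% and 0.397%. Mir503 departed from this, with 1.12% of the cluster in replicate 1 (exact 95% interval 0.893 to 1.38) and 2.00% in replicate 2 (1.80 to 2.21).

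The pair of hairpins of the same locus outside the 5 members was near the limit of detection. Mir450-2 had 3 counts in replicate 1 and 10 in replicate 2, and Mir450-1 had 4 and 10. Both carry the mature miR-450a-5p in full (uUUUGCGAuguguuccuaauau), a sequence of 22 bases that a read cannot place in one of the copies. Reads of this kind entered no gene count, so the low counts say little of how much miR-450a was present. None of the 10 mature arms of the members occurred whole in another hairpin of the RefSeq table. The longest run shared with another hairpin was 18 bases, between miR-450b-3p and Mir450-1, and for the other arms it was 9 to 11 bases.

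No member had a read on its other strand in either library. Against 7613 sense counts in replicate 1 and 18637 in replicate 2, a count of 0 allows a share of up to 0.0394% and 0.0161%. Over all miRNA genes the other strand held 1.26% of the counts in replicate 1 and 1.49% in replicate 2. This share is pooled and unevenly spread, so it is no background for a single gene. Mir15a, Mir16-1 and Mir125a also had 0 such reads in both libraries, whereas Mir497b had 529 in replicate 1 and 823 in replicate 2. A count of 0 is thus not particular to the members.

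All 5 members were lower in replicate 1 than in replicate 2. Ratios here are replicate 1 over replicate 2 on a log2 scale, after TMM scaling, which sets library sizes by a trimmed mean over genes, and over the summed counts the ratio was -0.87 (95% interval -0.91 to -0.83), a level 1.82-fold higher in replicate 2. With 1 library per dam this ratio has no replicate check, and its interval says nothing of the spread between litters. Mir503 had 85 counts in replicate 1 and 372 in replicate 2, a log2 ratio of -1.70 (95% interval -2.06 to -1.36). Mir542 had 158 and 452 counts, with a log2 ratio of -1.09 (-1.36 to -0.83). These 2 members were past 2-fold, though the interval of Mir542 reached inside 2-fold.

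The other members stayed inside 2-fold, though the intervals of Mir351 and Mir450b reached past it. Mir322 had 6300 counts in replicate 1 and 15071 in replicate 2, with a log2 ratio of -0.83 (95% interval -0.88 to -0.79). Mir351 had 1042 and 2668 counts and a ratio of -0.93 (-1.04 to -0.83), and Mir450b had 28 and 74 counts and a ratio of -0.96 (-1.66 to -0.33). The intervals of Mir322, Mir351, Mir542 and Mir450b overlapped one another, and that of Mir503 lay outside those of Mir322 and Mir351.

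The count of 2 members past 2-fold stands beside a background of 12.2% of genes. Of the 360 genes that reached 10 counts in either library, all 5 members included, 44 were past 2-fold, 16 higher in replicate 1 and 28 (7.78%) higher in replicate 2. The median log2 ratio was -0.96 for the 5 members and -0.02 for the 360 genes. Between 5.00% of these genes (for Mir503) and 10.8% (for Mir322) had a lower ratio than the member. Since the members were chosen with these ratios known, nothing is read from their place in that order. With scaling by total sense counts all log2 ratios moved by -0.21. All 5 members were then past 2-fold, from -1.05 for Mir322 to -1.91 for Mir503, beside 14.7% of all genes, of which 11 were higher in replicate 1 and 42 (11.7% of the genes tested) in replicate 2.

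**Figure D3:**
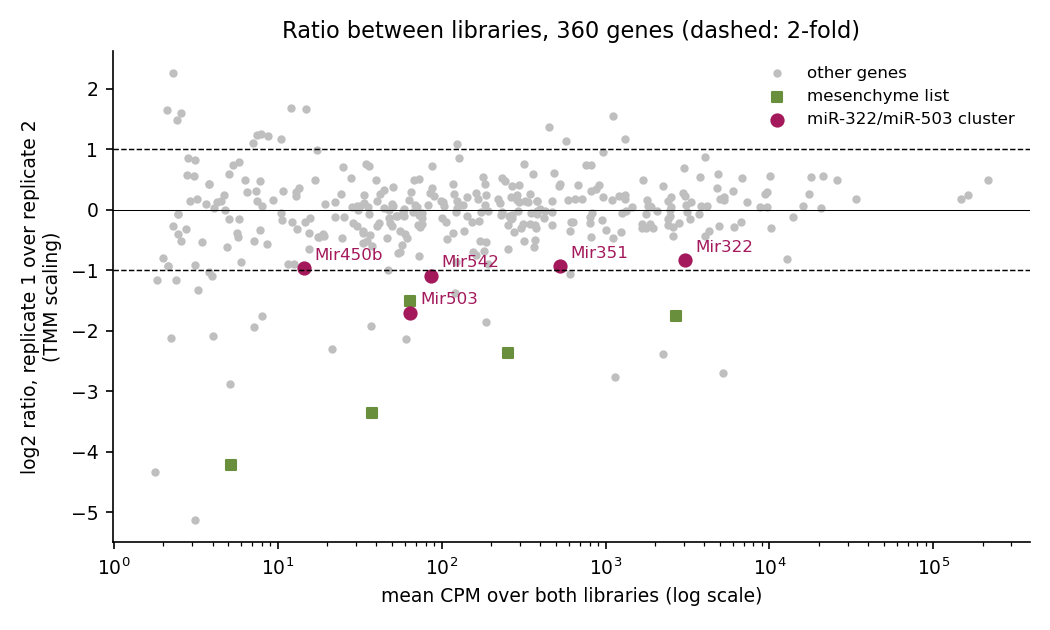
Log2 ratio of replicate 1 over replicate 2 after TMM scaling against mean CPM on a log scale, 1 point per gene for 360 genes. The cluster (magenta) lies between -1.70 and -0.83, the 5 tested genes of the mesenchyme list (green squares) lie between -4.22 and -1.51, and the dashed lines mark 2-fold.

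Levels relative to Mir322 within a library need no scaling between libraries. For every 1000 reads of Mir322 there were 13.5 reads of Mir503 in replicate 1 and 24.7 in replicate 2, so that Mir503 relative to Mir322 was 0.547 times as high in replicate 1 as in replicate 2 (exact conditional 95% interval 0.426 to 0.695). Mir351 stood at 165 reads per 1000 of Mir322 in replicate 1 and 177 in replicate 2, a ratio of 0.934 (0.864 to 1.01). Mir542 stood at 25.1 and 30.0, a ratio of 0.836 (0.692 to 1.01), and Mir450b at 4.44 and 4.91, a ratio of 0.905 (0.563 to 1.42). This comparison within the cluster was chosen after the values were seen and rests on the counts that selected the members. Its intervals hold no spread between embryos or dams, so it describes these 2 libraries and carries no test.

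**Figure D4:**
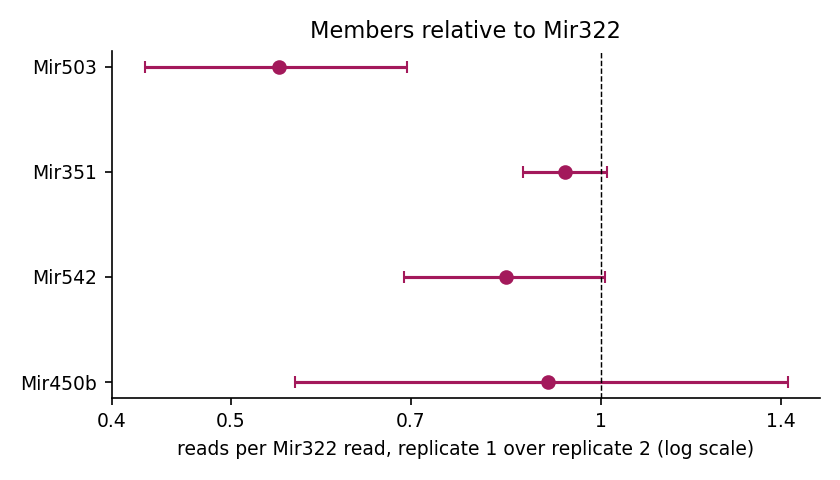
Reads of each member per read of Mir322, as the ratio of replicate 1 over replicate 2 on a log scale, with exact conditional 95% intervals for counting error. Mir503 lies lowest at 0.547, Mir542 at 0.836, Mir450b at 0.905 and Mir351 at 0.934, and the dashed line marks 1.

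Genes of other loci with the seed of Mir322 or of Mir351 were close between the libraries or higher in replicate 1. Of the genes of other loci with the seed of miR-322-5p, 9 were in the tables and 5 had counts, namely Mir15a, Mir15b, Mir16-1, Mir16-2 and Mir195a. Together they had 4957 CPM in replicate 1 and 5623 CPM in replicate 2, with a log2 ratio after TMM scaling of 0.03 (95% interval 0.00 to 0.06). Scaled by total counts instead, their ratio was -0.18. Mir15a, which lies with Mir16-1 in the locus for which the family is named, had 1905 CPM in replicate 1 and 2227 CPM in replicate 2, and Mir16-1 had 1758 and 1813 CPM. Mir322, at 1986 and 4104 CPM, stood above each of them in both libraries and was close to Mir15a in replicate 1. Of the counts summed over Mir322 and these 5 genes, Mir322 held 28.6% in replicate 1 (exact 95% interval 28.0 to 29.2) and 42.2% in replicate 2 (41.7 to 42.7).

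The genes with the seed of Mir351 were far more abundant than Mir351 itself. Mir125a had 5486 CPM in replicate 1 and 4201 CPM in replicate 2, and with Mir125b-1 and Mir125b-2 the family reached 8062 and 6930 CPM. Its log2 ratio was 0.43 (95% interval 0.41 to 0.46) and stayed above 0, at 0.22, with scaling by total counts, where that of Mir351 was below 0 with both. Mir351 held 3.92% of the counts with this seed in replicate 1 and 9.49% in replicate 2. The mature miR-16-5p and miR-125b-5p are each made by a pair of genes, whose reads can fit both positions and are then not counted, so both families may be understated and the members' shares overstated. Mir497, a further gene with the miR-322 seed, had no entry of that name and is missing from its family's sum, which may also overstate the share of Mir322. Mir497b, beside Mir195a on the opposite strand, had 529 other-strand reads in replicate 1 and 823 in replicate 2. These reads are outside the sum, and whether they belong to Mir497 was not tested.

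**Figure D5:**
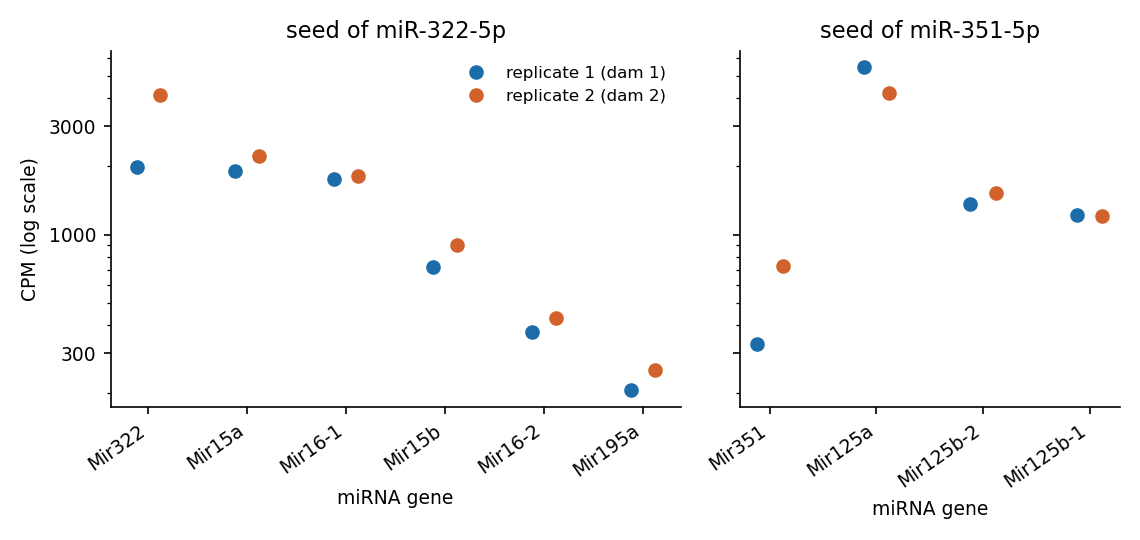
CPM on a log scale in replicate 1 (blue) and replicate 2 (orange) of genes whose mature miRNA has the seed of miR-322-5p (left) or of miR-351-5p (right). Mir322 lies at 1986 and 4104 CPM and Mir351 at 328 and 727 CPM, and the genes that share their seeds have points closer together in the 2 libraries.

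A wider list of miRNA genes known for growth or cell cycle control held 37 names, of which 34 were in the tables and tested. Their log2 ratios went both ways, 14 above and 20 below 0, beside 185 (51.4%) of all 360 genes tested below 0. The let-7 genes and Mir98 of the list were all above 0, from 0.32 for Mirlet7b to 1.36 for Mirlet7c-2. Listed genes from the clusters of Mir17, Mir106b and Mir106a were below 0, from -0.27 for Mir93 to -0.71 for Mir20b, except Mir19a at 0.04. The let-7 genes Mirlet7c-2 and Mirlet7a-1 were at least 2-fold higher in replicate 1, with log2 ratios of 1.36 and 1.09, though Mirlet7a-1 came to 0.88 with scaling by total counts. Reads that fit more than 1 let-7 gene are not counted, so these ratios rest on reads with a single position. Mir221, Mir483 of the imprinted growth factor gene Igf2, and Mir675 of the growth-restraining H19 RNA were at least 2-fold lower in replicate 1, with log2 ratios of -1.38, -1.86 and -1.93. Mir675 rested on 8 and 43 counts, and its 95% interval, -3.30 to -0.90, reached inside 2-fold. The other 29 genes of the list were within 2-fold. Over all 360 genes tested, 16 were at least 2-fold higher in replicate 1 and 28 (7.78%) in replicate 2. The median log2 ratio of the list was -0.11, against -0.02 for all genes tested. The nearest other miRNA cluster, that of Mir106a and Mir363, lies 305429 bp from Mir450b on the same strand and belongs to the growth-promoting miR-17 family. It had 534 CPM in replicate 1 and 887 CPM in replicate 2, a log2 ratio of -0.52 (95% interval -0.60 to -0.43), and none of its 5 tested genes was past 2-fold.

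X-linked miRNA genes outside the locus were spread to both sides of 0. Of 33 tested genes of chromosome X outside the locus, 17 had a log2 ratio below 0, with a median of -0.02, and the median over all 360 genes was also -0.02.

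Mesenchymal and endothelial markers and the sum of the blood markers were lower in replicate 1, as the cluster was, while most neural tube markers were higher. The neural tube list summed to a log2 ratio of 0.49 (95% interval 0.49 to 0.50), most of it Mir10b, and 6 of its 7 tested genes had a ratio above 0. The exception was Mir124a-2, at -1.16 on 4 and 13 counts. Of the 360 genes tested, 185 (51.4%) had a ratio below 0. With scaling by total counts Mir137 came to 0.04 and Mir10b to 0.28. Mesenchymal and smooth muscle miRNAs had 1197 CPM in replicate 1 and 4894 CPM in replicate 2. All 5 tested genes of this list of 6 were at least 2-fold lower in replicate 1, beside 28 (7.78%) of the 360 genes tested. The log2 ratio of the list's sum was -1.82 (95% interval -1.87 to -1.77). Mir199a-2 rested on 1 and 37 counts, and the untested sixth gene, Mir199a-1, had 0 and 2. Reads that fit both of these copies are not counted. The endothelial gene Mir126a had 8443 CPM in replicate 1 and 17271 CPM in replicate 2, a log2 ratio of -0.82 (-0.84 to -0.80), close to that of Mir322, and like Mir322 it was past 2-fold with scaling by total counts, at -1.03. The 3 measured genes of the blood list had a sum of 96.5 CPM in replicate 1 and of 209 CPM in replicate 2. In this list Mir223 alone was past 2-fold, and Mir223 in turn had 19.9 and 102 CPM.

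Muscle and cartilage markers lay close between the libraries after TMM scaling. The 8 measured muscle genes had a sum of 49.2 CPM in replicate 1 and of 59.4 CPM in replicate 2, with a log2 ratio of -0.06 (95% interval -0.36 to 0.24). Most of this was Mir206, at 140 and 189 counts, and the heart and skeletal muscle genes Mir133a-1 and Mir133a-2 were at 0 in both libraries, though reads that fit both of these copies are not counted. The cartilage gene Mir140 had a log2 ratio of 0.00 (-0.04 to 0.05). The part of neural, mesenchymal, vascular or blood cells in the cluster's ratio was not tested, and in whole tissue a change in the number of such cells and a change in RNA per cell cannot be told apart.

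Genes with the most similar pair of values were found as the 2 non-members with the smallest distance in log2(CPM + 1) over the 2 libraries. With so few libraries this is likeness in level and ratio at these 2 points only. Nearest to Mir503 were the mesenchymal Mir145a, at a distance of 0.15 on that scale with 29.6 CPM in replicate 1 and 98.3 CPM in replicate 2, and the myeloid Mir223 at 0.41. Nearest to Mir351 were Mir27b at 0.27 and Mir674 at 0.50, and nearest to Mir322 were Mir18 at 0.38 and Mir21a at 0.44. Nearest to Mir542 were Mir345 at 0.34 and Mir702 at 0.58. Mir193b at 0.26 and Mir344f at 0.29 were nearest to Mir450b.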

How the data were processed

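The 2 libraries form 1 group, and the members, gene lists and alternatives were chosen with earlier results of these data known. Raw counts of reads per miRNA gene were deposited, 1 table per library. The authors aligned to mm10 and used gene annotation M4, per the text notes that come with the tables. The aligner, trimming and read filters are unstated in these notes and labels. Every table holds 1973 genes, with counts of either strand, the sense strand and the other strand, and 4 rows that name no gene, which stayed out of library sizes. In replicate 1 and replicate 2 these rows took 46.6% and 48.1% of all reads.

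The sense column was used. Of the 1973 identifiers, 1894 matched GENCODE M21 (GRCm38, the same assembly as mm10) without their version. Mature and hairpin sequences came from RefSeq (GRCm38.p6), where 4 of 5 members had a hairpin and all had both mature arms. Genes that reached 10 counts in either library entered ratios, which are scaled by TMM (edgeR 4.0.16, R 4.3.3) with a prior count of 0.5. A single library per dam leaves no residual degrees of freedom, so no p-value was computed. Intervals are exact 95% intervals (scipy 1.17.1), and a count of 0 allows up to 3 counts. Replicates are embryos of different dams. The genes named are the members, the other hairpins of the locus, genes that share a seed, the nearest genes by level, the neighbouring cluster and the marker and growth lists. DESeq2 1.42.0 size factors, other filters and folds, and each library left out were alternatives. The ratio step was tested on simulated data.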

Additional observations from a re-analysis of the deposited data

How the results depend on the processing

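All 5 members kept a ratio below 0 under the other scalings, strand column and prior count tried, in 20 of 20 values between -0.82 and -1.91. This is no independent support, since these choices could hardly change a sign. Members had no other-strand reads, scaling by total counts moved their ratios further from 0, and the same counts chose the members. The summed level was 2400 to 5076 CPM with either library left out. Its mean was 1958 CPM with all reads as the total and 4725 CPM with Mir10b left out of the total, against 3738. The log2 ratio of the sum was -1.08 with scaling by total counts and -1.02 with Mir322 left out of it, against -0.87. The call of 2-fold depends on these choices. Of the members, 5 passed it with scaling by total counts and 5 with a minimum of 1.5-fold, against 2. Over all genes, 229 passed with no filter beyond 1 count, 20 with at least 100 counts over both libraries and 89 with a minimum of 1.5-fold, against 44. Leaving a library out leaves the other library's value, which for Mir503 is 26.8 or 101 CPM against a mean of 64.1, so with 2 libraries it is no check of stability. Among the other alternatives for single members, 38 moved a level by less than its wide SD or a ratio within its interval, and 2 moved further, the ratios of Mir322 and Mir351 with scaling by total counts. Adding Mir450-1 and Mir450-2, which was decided on after the values were known, gave a sum of 3742 CPM. No paired analysis was possible because both libraries belong to the same group. The 28 and 74 counts of Mir450b give its ratio a wide interval, and smaller differences among the members are not detectable at this depth.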
